A study of Mus musculus with 22 samples.

Results

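Ecel1 and 7 further genes associated with axon regeneration (Gap43, Sox11, Sprr1a, Basp1, Stmn2, Stmn4 and Klf6) were followed across sorted nuclei of the mouse hippocampus. These 8 genes were located by symbol among the 53379 rows of the count table, and all 8 passed the filter on low counts that left 40714 genes to be tested. They were picked by name with their response to kainate already in view. Their kainate values below are therefore a description of that response and no independent test of it.

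Adult male C57/BL6N mice received either kainate, an agonist of glutamate receptors that sets off status epilepticus, or 0.9% NaCl (sham), both injected above the right hippocampus. Per the study's methods and design text the hippocampus of the left, uninjected side was taken after 24 h, whereas the extraction protocol in the labels names the right side. The left side is taken here as the source. Hippocampi of 8 mice per treatment were pooled into 3 samples, and NeuN, the protein of Rbfox3, was the marker on which the nuclei of a pool were sorted. NeuN+ nuclei are called neurons here and NeuN- nuclei glia. The study states that the NeuN- fraction may hold a minor share of other cells, neurons among them. The sort left 3 libraries of kainate neurons, 3 of sham neurons, 3 of kainate glia and 2 of sham glia (replicates 1 and 3). The labels name no transgene or deletion. All mice were anesthetized with medetomidine and ketamine and later given buprenorphine, kainate mice entered the study only after convulsive seizures, and each library mixes several mice.

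Axons that have been cut can grow again only if the neuron restarts parts of its developmental programme. In peripheral neurons this involves transcription factors that are switched on in the cell body, proteins that sit under the growth cone membrane, and proteins that keep microtubules dynamic. In the hippocampus several of these genes are known from seizure models in which granule cell axons, the mossy fibers, sprout. Ecel1, also called DINE, is a membrane peptidase that neurons switch on after axotomy. Sox11 and Klf6 are transcription factors that favour axon growth, Gap43 and Basp1 are growth cone phosphoproteins, Stmn2 and Stmn4 are stathmins that bind free tubulin, and Sprr1a is a small proline-rich protein first known from skin that injured sensory neurons make in large amounts.

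Levels are given as normalized CPM, the count of a gene relative to the library size after scaling with the TMM method. The kainate neuron libraries held 19391118 to 45428465 counts, the sham neuron libraries 21282859 to 34995607 and the kainate glia libraries 18471055 to 24732499. The sham glia libraries held 20545699 and 12058875 counts. For 2 libraries, sham glia replicate 1 and kainate glia replicate 2, the RNA input was 0.05 ng with 15 PCR cycles, against 1 ng and 10 cycles elsewhere. The sort was visible in the markers: the summed level of 8 neuronal markers was 3840 to 8265 CPM in NeuN+ and 686 to 1035 CPM in NeuN- libraries, and that of 6 oligodendrocyte markers was 209 to 475 CPM in NeuN+ and 4852 to 38943 CPM in NeuN- libraries. The libraries of replicate 1 stood apart in all 4 groups for several of these genes, as described below. In bulk samples like these, a lower level can mean fewer nuclei of a type or less RNA per nucleus, and the 2 cannot be told apart.

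RefSeq promoter windows (250 bases before to 50 bases after the start of the gene, GRCm38.p6) were at hand for 5 of the 8 genes: Ecel1, Sox11, Sprr1a, Basp1 and Klf6. Both strands were searched for 8 motifs: the AP-1 site (TGANTCA), the cyclic AMP element (TGACGTCA), the GC box (GGGCGG), the TATA box (TATAAA), the STAT site (TTCNNNGAA), the KLF box (CCACCC), a SOX motif (ACAATG) and the SRF CArG box. Of the 5 windows, that of Sprr1a alone held AP-1 motifs, the sequence bound by Jun and Atf3 family dimers. It held 2 of them, whereas 7.81% of all 32851 windows held at least 1. The stretches are shown because they set Sprr1a apart from the other 4 windows. Capitals mark the motif, and the sequences read 5′ to 3′ along the minus strand that carries the gene.
Sprr1a AP-1, chr3:92486009-92486038: ataactaaagcTGAGTCAgagggtgaacta
Sprr1a AP-1, chr3:92485979-92486008: ggggaggagggTGAGTCAtaggtgactggt
Sprr1a TATA box, chr3:92485907-92485936: aggtgttcttctTATAAAaagccagctgcc
Counted from the RefSeq start of the gene, the AP-1 motifs begin at -146 and -116 and the TATA box, which 13.6% of windows held, at -43. The Sprr1a window also held 1 KLF box, present in 31.5% of all windows, and 1 SOX motif, present in 12.6%. Basp1 held 1 KLF box too. GC boxes, present in 35.7% of all windows, were found in Sox11 (2), Basp1 (4) and Klf6 (1). The GC box of Klf6 is shown as the single match in that window, on the plus strand that carries the gene.
Klf6 GC box, chr13:5861414-5861443: gggtaccgtgggGGGCGGagctccaagctg
The Ecel1 window held none of the 8 motifs. A match describes letters in the window and not binding of a factor.

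Ecel1 (ENSMUSG00000026247, chromosome 1, 87147655 to 87156521, minus strand of GRCm38 in GENCODE M21) was higher in neurons after kainate and not in glia. Its levels in kainate neurons were 34.9, 34.9 and 36.3 CPM in replicates 1 to 3. In sham neurons they were 9.27, 9.96 and 8.86 CPM. The 2 groups lay far apart, and every kainate library held more than 3 times the level of every sham library. Kainate glia held 22.1, 20.0 and 17.8 CPM, and the sham glia libraries held 28.2 and 18.2 CPM. The glia ranges overlapped and both lay between the sham neurons and the kainate neurons.

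The order of Ecel1 was thus kainate neurons (35.4 ± 0.856 CPM, SD, n = 3), sham glia (23.2 ± 7.09, n = 2), kainate glia (20.0 ± 2.12, n = 3) and sham neurons (9.36 ± 0.556, n = 3). Sham glia and kainate glia were the one pair of neighbours in this order whose libraries overlapped. Kainate over sham was 1.92 ± 0.31 (log2 fold change ± SE) in neurons, a 3.77-fold higher level, with an FDR of 0.0704. Here FDR stands for the p of the quasi-likelihood test of edgeR after Benjamini-Hochberg adjustment over all 40714 genes, and a gene is called at an FDR below 0.25. In glia the log2 fold change was -0.21 ± 0.33 with an FDR of 1.00. Kainate neurons replicate 1 held 3.76 times the level of sham neurons replicate 1, and the ratios of replicates 2 and 3 were 3.50 and 4.10. In glia the ratios of replicates 1 and 3 were 0.783 and 0.983.

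The Ecel1 call in neurons was lost without any one of 3 libraries. Its log2 fold change stayed between 1.87 and 1.96 when any 1 of the 11 libraries was left out, while its FDR rose to 0.348 without kainate neurons replicate 2, to 0.556 without sham neurons replicate 2 and to 0.693 without sham neurons replicate 3. With the replicate number as a block in the fit, the FDR was 1.12e-08. The block leaves few residual degrees of freedom, so its FDRs here and below lean on the spread estimated over all genes. Without the 4 libraries of replicate 1 the log2 fold change was 1.84. The within-group SD of Ecel1 was 0.19 on the log2 scale, and 0.734% of the tested genes had a smaller one. Markers of astrocytes, cells of the NeuN- fraction, also differed between the neuron groups. Their 6 markers summed to 252 to 410 CPM in kainate neurons, 170 to 234 CPM in sham neurons and 625 to 3999 CPM in glia. The 6 did not move together: their log2 fold changes in neurons ran from -0.71 for Gja1 to 1.90 for Gfap, and the block called 4 higher and 2 lower. The 6 microglia markers summed to 32.7 to 50.4 CPM in kainate neurons, 26.4 to 30.9 CPM in sham neurons and 465 to 2638 CPM in glia, and the block called 1 of them higher and 1 lower in neurons. The part of either list in the Ecel1 value was not tested.

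**Figure D1:**
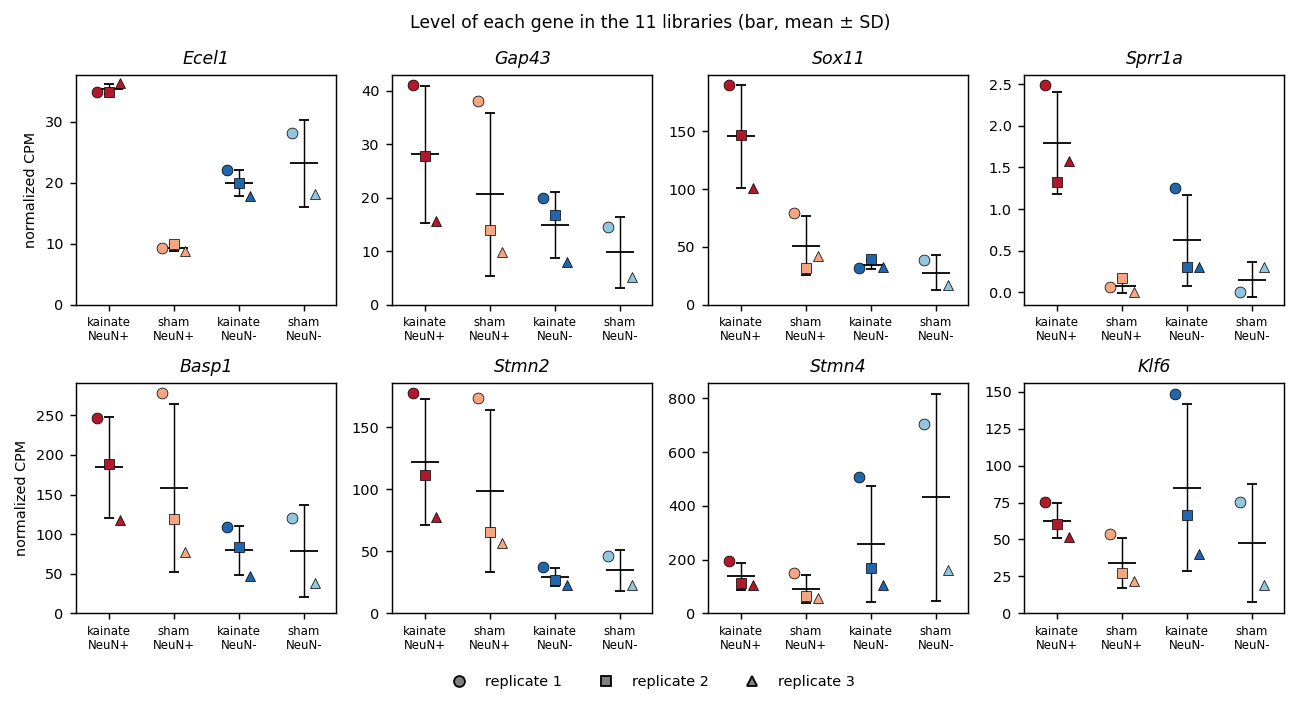
Normalized CPM (vertical axes, linear, a different range for each gene) of the 8 genes in the 11 libraries, by group. Symbols are libraries (circle, replicate 1; square, replicate 2; triangle, replicate 3) and bars are the mean ± SD. Ecel1 shows tight neuron groups, with kainate at 34.9 to 36.3 CPM, and 2 sham glia libraries at 28.2 and 18.2 CPM, whereas for Gap43, Basp1, Stmn2, Stmn4 and Klf6 replicate 1 was the highest library of each group.

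Of the transcription factors, Sox11 (chromosome 12, 27334264 to 27342574, minus strand) is a SoxC protein of newborn neurons. Its level was 190, 147 and 101 CPM in kainate neurons and 79.7, 31.9 and 41.9 CPM in sham neurons. The lowest kainate library was above the highest sham library. In kainate glia it was 31.9, 39.1 and 33.0 CPM, and in sham glia 38.4 and 17.3 CPM, so the glia groups overlapped. The log2 fold change in neurons was 1.51 ± 0.43, a 2.85-fold higher level, with an FDR of 0.664. With the replicate block it was 1.57 ± 0.21 with an FDR of 2.71e-07, and without the libraries of replicate 1 it was 1.67 with an FDR of 0.00117. In glia it was 0.32 ± 0.47.

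Markers of immature neurons, the cells that make most Sox11 in the adult hippocampus, were summed beside it. The 7 markers summed to 77.6 to 149 CPM in kainate neurons and 106 to 204 CPM in sham neurons, and none of the 7 was called by edgeR or had an unadjusted p below 0.05, while the block called 1 of them lower. Over all 10 cell type lists none of the 52 markers was called in neurons or in glia, with 3 at an unadjusted p below 0.05 in each, and DESeq2 called 1 and 2 of them. The replicate block called 7 of the 52 higher and 9 lower in neurons, and 2 higher and 14 lower in glia. The 3 granule cell markers summed to 223 to 382 CPM in kainate neurons and 337 to 595 CPM in sham neurons. The block called 2 of these 3 lower in neurons. The ranges of both sums overlapped between treatments, while in each of the 3 same-numbered pairs of neurons both sums were lower after kainate. The 5 interneuron markers went the other way: their sum was higher after kainate in all 3 pairs, at 709, 460 and 331 CPM against 669, 250 and 199 CPM, with 2 of the 5 called higher by the block and none without it, nor at an unadjusted p below 0.05. The part of these marker differences in the Sox11 value was not tested.

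Klf6 (chromosome 13, 5861482 to 5870394, plus strand), a Kruppel-like factor, was the one transcription factor of the pair with similar fold changes in both fractions. It stood at 75.6, 60.6 and 51.9 CPM in kainate neurons against 53.5, 27.2 and 21.6 CPM in sham neurons. In kainate glia it stood at 149, 66.4 and 40.3 CPM, and in sham glia at 75.7 and 19.5 CPM. The groups overlapped in both fractions, although in each same-numbered pair the kainate library was the higher. The log2 fold change was 0.88 ± 0.56 in neurons and 0.84 ± 0.63 in glia, both with an FDR of 1.00. The replicate block changed both calls: 0.97 ± 0.19 with an FDR of 0.000567 in neurons, and 1.01 ± 0.24 with an FDR of 0.00587 in glia. Leaving out sham glia replicate 1, one of the low-input libraries, left 1 sham glia library, taken to vary like the other groups, and moved the glia value to 2.16, and leaving out kainate glia replicate 1 moved it to 0.03.

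Sprr1a (chromosome 3, 92483952 to 92485895, minus strand) was close to absent from sham nuclei. Its raw counts were 35, 52 and 35 in kainate neurons and 1, 6 and 0 in sham neurons. In kainate glia they were 20, 9 and 11, and in sham glia 0 and 6. The lowest kainate library was thus above the highest sham library in neurons, and in CPM also in glia, where the 2 nearest libraries held 0.31 and 0.30 CPM. The fitted log2 fold change was 4.36 ± 1.23 in neurons, with an FDR of 0.655, and 1.93 ± 1.33 in glia. With the replicate block the neuron value was 4.38 ± 0.90 with an FDR of 0.000866. At counts this low the fold is imprecise: it ranged from 3.76 to 5.88 on the log2 scale in neurons and from 0.94 to 6.93 in glia when single libraries were left out, the highest glia value arising where the remaining sham glia library held no count, and reached 0.06 in glia without the libraries of replicate 1. Sprr1b, its neighbour in the family, stayed at or below 1.24 CPM in all libraries, and Sprr3 did not pass the filter on low counts.

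Gap43 (chromosome 16, 42248442 to 42340651, minus strand), the classical growth cone protein, varied more between replicates than between treatments. It was 41.1, 27.7 and 15.6 CPM in kainate neurons and 38.0, 14.0 and 9.90 CPM in sham neurons. In kainate glia it was 19.9, 16.8 and 8.01 CPM, and in sham glia 14.4 and 5.11 CPM. Replicate 1 was the highest and replicate 3 the lowest in all 4 groups, and the treatments overlapped. The log2 fold change was 0.45 ± 0.57 in neurons and 0.61 ± 0.65 in glia, and neither was called, with the replicate block (FDR of 0.263 and 0.543) or without it. Leaving out single libraries moved the value between 0.07 (kainate neurons replicate 1) and 1.24 (sham neurons replicate 1) in neurons, and between 0.04 (sham glia replicate 3) and 1.57 (sham glia replicate 1) in glia. The annotation places 1 microRNA gene, Mir6540, on the same strand inside Gap43, so that their reads could not be told apart there.

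Basp1 (chromosome 15, 25363277 to 25413764, minus strand), which like Gap43 binds membrane lipids in the growth cone, followed Gap43 closely. Its level was 246, 188 and 118 CPM in kainate neurons and 278, 120 and 77.4 CPM in sham neurons. In glia it was 109, 83.3 and 47.3 CPM after kainate and 120 and 38.2 CPM in sham. The treatments overlapped in both fractions. With log2 fold changes of 0.22 ± 0.54 in neurons and 0.01 ± 0.60 in glia, Basp1 had the value nearest to 0 of the 8 genes in each fraction, and neither was called with the block. Without single libraries the Basp1 value ranged from -0.11 to 0.90 in neurons and, without 1 or the other sham glia library, from -0.59 to 1.09 in glia.

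The stathmins differed from each other mainly in where they were expressed. Stmn2 (chromosome 3, 8509360 to 8561606, plus strand) was at 178, 111 and 77.5 CPM in kainate neurons and 174, 65.8 and 56.9 CPM in sham neurons. Kainate glia held 37.2, 27.1 and 23.3 CPM and sham glia 46.6 and 22.9 CPM. No Stmn2 kainate effect was called, with a log2 fold change of 0.31 ± 0.48 in neurons (-0.06 to 0.99 without single libraries) and -0.25 ± 0.53 in glia (-0.68 to 0.38). Stmn4 (chromosome 14, 66344296 to 66361680, plus strand) was at 196, 114 and 105 CPM in kainate neurons and 149, 63.7 and 55.9 CPM in sham neurons. Its glia levels were 506, 167 and 105 CPM after kainate and 705 and 160 CPM in sham. The groups overlapped in each fraction, and replicate 1 was by far the highest glia library of either treatment. The Stmn4 log2 fold change was 0.63 ± 0.64 in neurons and -0.74 ± 0.71 in glia. Leaving out single libraries moved it between 0.29 (kainate neurons replicate 1) and 1.21 (sham neurons replicate 1) in neurons, and between -1.81 (kainate glia replicate 1) and 0.72 (sham glia replicate 1) in glia. With the replicate block the neuron value was 0.71 ± 0.18 with an FDR of 0.0110, and the glia value was -0.55 ± 0.22 with an FDR of 0.257. The other stathmins, Stmn1 and Stmn3, had log2 fold changes of 0.14 ± 0.74 and -0.01 ± 0.68 in neurons. In glia these were -1.08 ± 0.82 and -0.37 ± 0.76. None of these was called without the block, and calls of relatives with it are counted below.

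All 8 log2 fold changes in neurons were above 0, with a median of 0.75 against -0.01 over all genes tested. Of the 8, Ecel1 alone was called, where 0.157% of all genes tested were called higher. The study's own lists of genes changed in neurons or in glia, from separate fits at the same FDR, hold none of the 8. At an FDR below 0.05 none of the 8 was called by edgeR, where 0.0196% of all genes were, 3 of the 8 had an unadjusted p below 0.05 against 849 of the 40714 genes, and DESeq2, at an FDR below 0.25, called 2 of the 8 (Ecel1 and Sox11) against 360 of all genes. With the replicate block 5 of the 8 were called (Ecel1, Sox11, Sprr1a, Stmn4 and Klf6), all higher, where 3.19% of all genes were called higher. Libraries did not overlap between treatments for 3 of the 8 (Ecel1, Sox11 and Sprr1a), all higher after kainate, as was the case for 4.26% of all genes. In 7 of the 8 genes all 3 same-numbered pairs were higher after kainate, the exception being Basp1, where 15.7% of all genes showed the same. Because the genes were chosen with this comparison in view, nothing is read from these shares.

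In glia, 5 of the 8 log2 fold changes were above 0 and 3 below, with a median of 0.17 against 0.02 over all genes. None was called by edgeR without the block, where 0.101% of all genes were, none by DESeq2 against 254 of all genes, and none had an unadjusted p below 0.05 against 834 of all genes. With the block Klf6 alone was called, where 2.93% of all genes were called higher. Sprr1a alone was higher after kainate with no overlap between treatments, as were 4.7% of all genes.

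**Figure D2:**
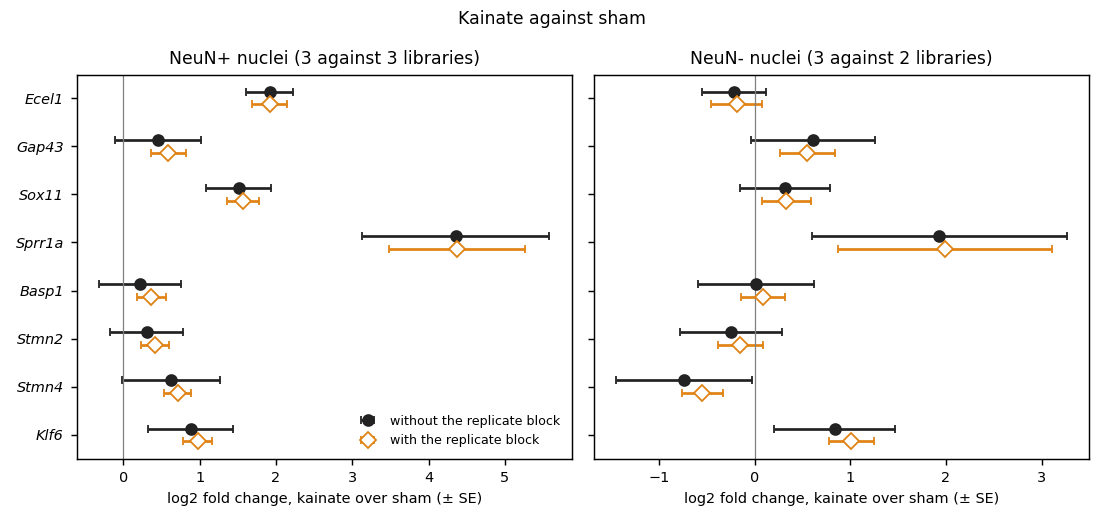
Log2 fold change of kainate over sham (horizontal axes, ± SE) for each gene in NeuN+ and NeuN- nuclei, from the fit without the replicate block (filled circles) and with it (open diamonds). The block narrows the error bars and leaves the estimates nearly in place: in neurons Ecel1 stays at 1.92 and Sox11 moves from 1.51 to 1.57.

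The difference between the neuron and the glia effect was computed for each gene in the same model. For Ecel1 it was 2.13 ± 0.45 on the log2 scale, with an FDR of 1.00. None of the 8 genes was called by edgeR, where 1 of the 40714 genes (0.00246%) was, 1 of the 8 had an unadjusted p below 0.05 against 370 of all genes, and DESeq2 called 1 against 31 of all genes, Ecel1 in both cases. With the replicate block Ecel1 (2.10 ± 0.35, FDR of 0.000169), Stmn4 (1.26 ± 0.28, FDR of 0.0102) and Sox11 (1.24 ± 0.33, FDR of 0.0534) were called, all with the higher value in neurons, as were 1.23% of all genes. Of these 3, Ecel1 and Stmn4 had opposite signs in the 2 fractions and Sox11 was above 0 in both, but each glia sign changed without 1 sham glia library: to 0.16 for Ecel1 and 0.72 for Stmn4 without replicate 1, and to -0.16 for Sox11 without replicate 3. In the fit without the block, the difference ranged from 1.75 to 2.42 for Ecel1, from 0.48 to 1.67 for Sox11 and from -0.10 to 2.41 for Stmn4 when single libraries were left out. For Gap43, Basp1, Stmn2, Sprr1a and Klf6 no difference between the fractions was called with or without the block, which does not show that their effects were equal.

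The distribution between the fractions was examined in the sham libraries alone. This comparison holds no kainate library, but it shares the sham neurons with the comparison through which the genes were chosen, so it is only partly independent. Of the 8 genes, 3 were called, where 16.7% of all genes were. Stmn2 was higher in neurons, with a log2 ratio of 1.51 ± 0.56 and an FDR of 0.142. Ecel1 was lower in neurons than in glia, with a log2 ratio of -1.31 ± 0.33 and an FDR of 0.0229. Stmn4 was also lower in neurons, at -2.27 ± 0.71 with an FDR of 0.0683. These 3 were also the genes whose sham libraries did not overlap between the fractions, where 26.9% of all genes did not. With the pool as the block, since both fractions of a number came from the same hippocampi, Gap43 (1.18 ± 0.29, FDR of 0.0161), Sox11 (1.16 ± 0.28, FDR of 0.0155) and Basp1 (1.12 ± 0.24, FDR of 0.00847) were called higher in neurons as well, where 34% of all genes were called in either direction. At an FDR below 0.05 Ecel1 alone was called, without the block, against 8.87% of all genes. Markers of some neurons were also measured in sham glia. The 7 immature neuron markers summed to 92.2 to 172 CPM there and to 106 to 204 CPM in sham neurons. For the 3 granule cell markers the sums were 119 to 258 CPM and 337 to 595 CPM. The part of such nuclei in the glia values was not tested.

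Several of these sham values turned on single libraries. Without sham glia replicate 1 the Stmn4 ratio was -0.80 with an FDR of 0.460, and the Ecel1 ratio was -0.91 with an FDR of 0.192. Ecel1 lost its call (FDR of 0.263) when both low-input libraries were left out. The Stmn2 call was lost without sham neurons replicate 1 (0.82, FDR of 0.541) and without sham glia replicate 3 (1.08, FDR of 0.358). Klf6 and Sprr1a, with ratios of -0.48 ± 0.61 and -0.87 ± 1.36, were not called and changed sign when 1 sham glia library was left out.

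Stmn4 in glia had the order of the oligodendrocyte, astrocyte, microglia and pericyte markers over the libraries. The 6 oligodendrocyte markers summed to 27163, 11653 and 4852 CPM in kainate glia replicates 1 to 3 and to 38943 and 8752 CPM in sham glia replicates 1 and 3. Stmn4 had the same order over these 5 libraries, highest in sham glia replicate 1 and lowest in kainate glia replicate 3. The astrocyte markers, at 625 to 3999 CPM, the microglia markers, at 465 to 2638 CPM, and the pericyte markers, at 29.2 to 67.3 CPM, had that order too. In the comparison of kainate with sham glia the replicate block called 4 of the 6 oligodendrocyte markers lower, 3 of the 6 astrocyte markers lower and 1 higher, and 2 of the 6 microglia markers and all 4 oligodendrocyte precursor markers lower. The precursor markers had another order, with sham glia replicate 3 at 703 CPM above kainate glia replicate 2 at 525 CPM. In neurons the orders were opposite within each treatment. Over replicates 1 to 3 the oligodendrocyte markers summed to 209, 397 and 447 CPM after kainate and to 263, 361 and 475 CPM in sham. Stmn4 was at 196, 114 and 105 CPM after kainate and at 149, 63.7 and 55.9 CPM in sham. The part of any of these nuclei in the Stmn4 value was not tested.

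After kainate the balance of Ecel1 between the fractions was turned around. This comparison holds the kainate neuron libraries through which the genes were chosen, so its values are a description and no independent test. In the 2 sham pools with both fractions, neurons held 0.329 and 0.488 times the Ecel1 level of glia, and in the 3 kainate pools 1.58, 1.74 and 2.04 times. The log2 ratio after kainate was 0.82 ± 0.30 with an FDR of 0.118. Sox11 (2.07 ± 0.44, FDR of 0.00675), Stmn2 (2.07 ± 0.50, FDR of 0.0148) and Basp1 (1.21 ± 0.55, FDR of 0.229) were called higher in neurons as well. These were 4 of the 8 genes, where 11.3% of all genes were called higher. At an FDR below 0.05 they were 2, Sox11 and Stmn2, where 6.05% of all genes were called higher. The Ecel1 and Basp1 calls were each lost without any one of 4 kainate libraries (neurons replicates 1 and 2 and glia replicates 2 and 3 for both), with an FDR of up to 0.285 for Ecel1 and 0.542 for Basp1, and with no filter on low counts (FDR of 0.270 and 0.295). The Basp1 call was also lost without sham neurons replicate 2 (FDR of 0.278) and without both low-input libraries (0.256), while those of Sox11 and Stmn2 held without any 1 library. With the pool as the block, Gap43 (0.91 ± 0.23, FDR of 0.0157), Sprr1a (1.79 ± 0.75, FDR of 0.114) and, in the other direction, Stmn4 (-0.64 ± 0.28, FDR of 0.129) were called too, where 49.3% of all genes were. The Stmn4 ratio was 0.039 without kainate glia replicate 1.

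**Figure D3:**
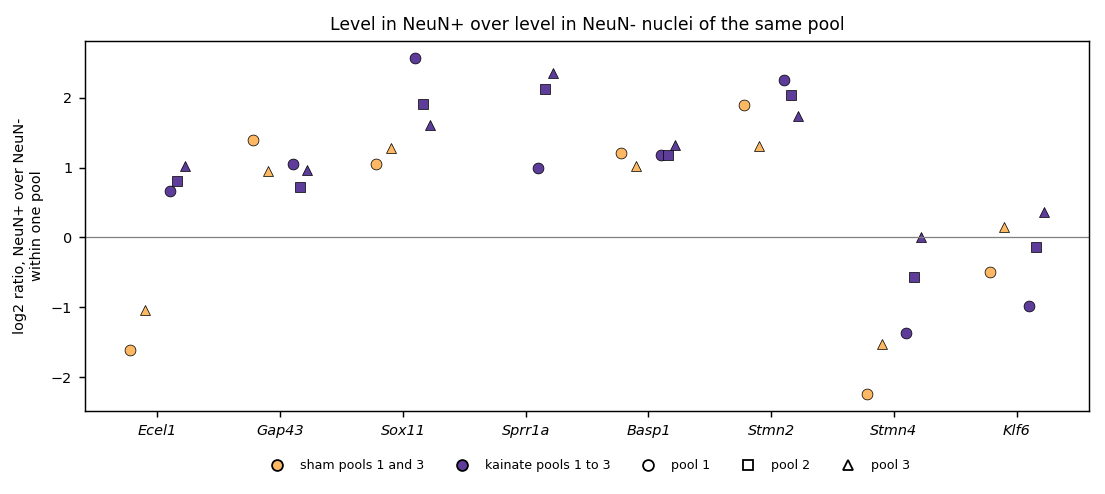
Log2 ratio of the level in NeuN+ over that in NeuN- nuclei of the same pool (vertical axis) for each gene, in the 2 sham pools with both fractions (orange) and the 3 kainate pools (purple). Ecel1 lies below 0 in both sham pools and above 0 in all 3 kainate pools, Gap43, Sox11, Basp1 and Stmn2 lie above 0 throughout, and no sham ratio is drawn for Sprr1a because 1 library of each sham pool had no count.

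Compared per length, with CPM divided by the kilobases of exon, Basp1 was the most abundant of the 8 in neurons and Stmn4 in glia. In sham neurons the levels per kilobase were 78.7 ± 52.5 for Basp1, 46.7 ± 27.0 for Stmn4, 17.6 ± 11.6 for Stmn2, 13.5 ± 9.98 for Gap43, 7.77 ± 3.88 for Klf6, 6.16 ± 3.03 for Sox11, 2.68 ± 0.159 for Ecel1 and 0.0990 ± 0.108 for Sprr1a (SD, n = 3). Most neighbours in this order did not differ beyond their SD. The gaps from Stmn4 to Stmn2, from Sox11 to Ecel1 and from Ecel1 to Sprr1a were larger than either SD concerned. Ecel1 and Sprr1a kept ranks 7 and 8 in kainate neurons, at 10.1 ± 0.245 and 2.23 ± 0.760 per kilobase, and Sox11 stood at 17.5 ± 5.36. In glia Ecel1 ranked 5 after kainate and 4 in sham, with 5.71 ± 0.605 (n = 3) and 6.62 ± 2.03 (n = 2) per kilobase.

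The 8 genes did not share one pattern over the libraries. After the mean of each group was taken off, the log2 levels of Gap43 and Basp1 correlated at r = 0.989 over the 11 libraries, those of Stmn4 and Klf6 at 0.989 and those of Gap43 and Stmn2 at 0.957. Sprr1a had correlations of -0.42 to 0.08 with the others. These are descriptions over libraries that share pools and library preparation. For Gap43, Basp1, Stmn2, Stmn4 and Klf6, replicate 1 was the highest library of every group. Their deviations from the group mean were 0.29 to 1.29 in the 4 libraries of replicate 1, against -0.02 to 0.15 for Ecel1 in 3 of them and 0.32 in sham glia. The number of a replicate was thus tied to the level of these 5 genes far more than to that of Ecel1.

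**Figure D4:**
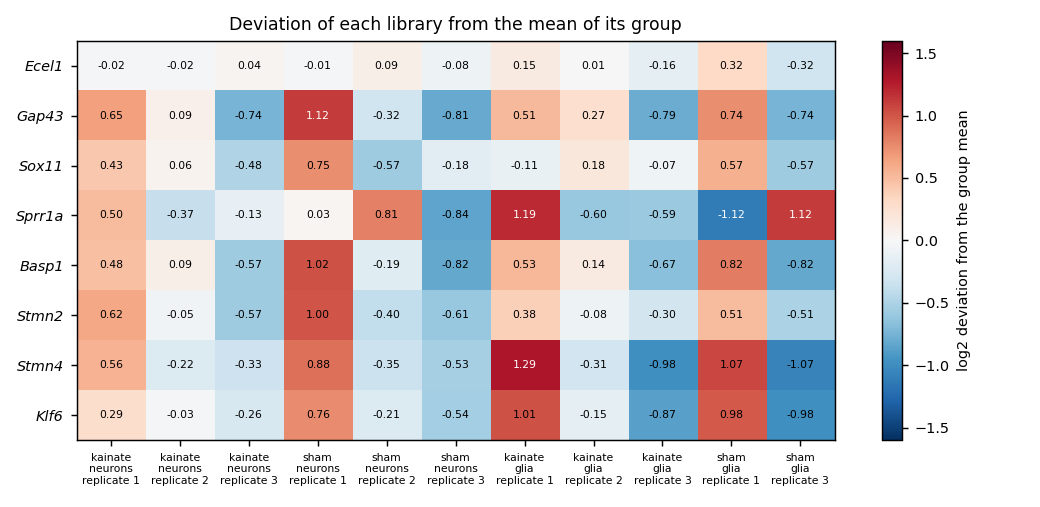
Deviation of each library from the mean of its group, on the log2 CPM scale, for the 8 genes (rows) in the 11 libraries (columns), with red above and blue below the mean. Libraries of replicate 1 lie above their group mean for Gap43, Basp1, Stmn2, Stmn4 and Klf6 in all 4 groups, while Ecel1 stays within -0.32 and 0.32.

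Ranked by the likeness of their levels to Ecel1 over the 11 libraries, among 19944 genes of sufficient abundance, the 5 nearest genes were Cdk18 (r = 0.962), Megf11 (0.951), Lhfp (0.942), Acan (0.939) and Fbxo17 (0.929). Cdk18 is a cyclin-dependent kinase of the PCTAIRE group and Acan encodes aggrecan, the core proteoglycan of perineuronal nets. Cdk18 had mean levels of 230 CPM in kainate neurons, 42.2 in sham neurons, 118 in kainate glia and 151 in sham glia, which is the order of Ecel1 with the glia groups in between. None of the other 7 genes was near the top of that ranking. Sprr1a was the nearest at r = 0.705, followed by Klf6 at 0.549 and Sox11 at 0.478, and Stmn2 was the farthest at 0.0804.

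Other genes of axon regrowth were described from lists drawn from general knowledge. Several of their genes also stand in the study's own lists from these samples (Atf3, Myc and Cebpd among the transcription factors, Tubb6 among the cytoskeletal genes, and 11 of the 30 injury effectors), so that their direction is not independent evidence. Over all genes tested, edgeR called 0.157% higher in neurons and 0.101% in either direction in glia, and with the block 3.19% and 2.93% higher. DESeq2 called 360 and 254 of all genes, and separate fits per fraction called 390 of 30259 genes in neurons. The list counts stand beside these shares, and the genes of a list were not tested as a set. Of 12 transcription factors known from nerve injury, 1 was called in neurons and 3 in glia, all higher. Atf3, the most widely used marker of axotomized neurons, was higher in both fractions, by 3.41 (FDR of 0.0566) in neurons and 4.03 (FDR of 0.0763) in glia on the log2 scale. It rose from 1.26 ± 0.357 to 13.6 ± 4.79 CPM in neurons and from 2.62 ± 0.0859 to 42.8 ± 29.7 CPM in glia. Myc (2.92, FDR of 0.0763) and Cebpd (2.82, FDR of 0.142) were called in glia. The median of the list was 0.62 in neurons and 1.16 in glia, and with the replicate block 6 and 8 of the 12 were called, all higher. DESeq2 called 2 in neurons and 4 in glia, and separate fits per fraction 3 in neurons, all higher. The neuron call was lost without sham neurons replicate 2 or 3. The neuron count was 2 without kainate glia replicate 3, and also with a filter at a CPM of at least 1 in 3 libraries. In glia 0 were called by edgeR in separate fits per fraction, where no gene at all was called, and 0 without sham glia replicate 1 or without both low-input libraries, while 1 was called without kainate glia replicate 2.

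Of 20 genes of the growth cone and cytoskeleton, none was called by edgeR in neurons, where 1 had an unadjusted p below 0.05 and DESeq2 called 1, while with the block 5 were called, all higher, where 3.19% of all genes were. In separate fits per fraction, and also without the libraries of replicate 1, 1 of the 20 was called higher in neurons. In glia the tubulin gene Tubb6 alone was called, with a log2 fold change of 3.26 and an FDR of 0.0763. It rose from 3.10 ± 0.316 (n = 2) to 29.8 ± 7.25 CPM (n = 3). With the block 4 of the 20 were called higher and 4 lower in glia, where 2.93% of all genes were called higher. Without the libraries of replicate 1 there were 3 called higher, and without sham glia replicate 3 there was 1 higher and 1 lower. The Tubb6 call was lost in separate fits per fraction, without sham glia replicate 1 and without both low-input libraries. The median of the list was 0.23 in neurons and 0.07 in glia.

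The 30 genes that injured peripheral neurons switch on included the largest values. In neurons 2 were called, both higher. Gal, the neuropeptide galanin, went from 0.415 ± 0.288 to 23.7 ± 5.58 CPM (log2 fold change of 5.74, FDR of 0.0354), and Socs3, which dampens cytokine signalling through STAT proteins and restrains axon regrowth, went from 3.14 ± 0.0807 to 69.8 ± 26.7 CPM (4.47, FDR of 0.00143). In glia 4 were called, all higher: Socs3 (5.50, FDR of 0.00358), the adhesion receptor Cd44 (3.72, FDR of 0.0763), the TWEAK receptor gene Tnfrsf12a (3.86, FDR of 0.142) and the small heat shock protein gene Hspb1 (3.47, FDR of 0.227). The median was 0.50 in neurons and 0.73 in glia. With the block 12 of the 30 were called higher in neurons, where 3.19% of all genes were, and in glia 15 higher and 1 lower, where 2.93% of all genes were higher. DESeq2 called 9 higher in neurons and 10 in glia, and separate fits called 7 higher in neurons. Without sham neurons replicate 2 the neuron count fell to 1, and it was 4 without sham neurons replicate 1 and 6 without either sham glia library. In glia it was 0 in separate fits per fraction, and 1 without sham glia replicate 1, without kainate glia replicate 2 or without both low-input libraries. It was 2 without kainate glia replicate 1, kainate neurons replicate 2 or sham neurons replicate 3, and 7 without sham glia replicate 3, where 2812 of 42640 genes were called.

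Genes that restrain regrowth or guide axons came next. None of the 17 was called by edgeR in either fraction, with 1 called higher in neurons in separate fits per fraction and 1 without the libraries of replicate 1, and their medians were -0.003 in neurons and 0.02 in glia. An unadjusted p below 0.05 was found for 1 in neurons and 0 in glia, DESeq2 called none of them, and the replicate block called 1 in each fraction. These were Lingo1, a partner of the Nogo receptor, higher in neurons (1.09), and Omg, a myelin inhibitor, lower in glia (-1.33). In glia the block also called 4 of the 6 oligodendrocyte markers and all 4 oligodendrocyte precursor markers lower, and their part in the Omg value was not tested. Among the 6 other peptidases of the neprilysin family, to which Ecel1 belongs, none was called by edgeR or DESeq2 in either fraction, and 1 in neurons and 0 in glia had an unadjusted p below 0.05. The log2 fold changes in neurons were 0.75 ± 0.32 for Ece1, 0.49 ± 0.79 for Phex, 0.45 ± 0.84 for Mmel1, -0.06 ± 0.38 for Ece2, -0.49 ± 1.03 for Kel and -0.74 ± 0.54 for Mme. Ece1, the endothelin-converting enzyme, went from 49.9 ± 9.03 CPM in sham to 83.9 ± 3.49 CPM in kainate neurons and was the only one called with the block (FDR of 0.0112). In glia the 6 lay between -0.73 for Ece2 and 1.80 for Kel, none called with or without the block, while 3 were called higher without sham glia replicate 3, a fit that called 2812 of 42640 genes and kept the low-input library as the one sham glia library. Of 13 tested relatives of Sox11, Klf6, the stathmins and Sprr1a, none was called by edgeR in either fraction, with 2 at an unadjusted p below 0.05 in each. DESeq2 called 1 in neurons and 0 in glia. In neurons edgeR called 1 higher and 1 lower in separate fits per fraction, and 1 higher without sham neurons replicate 1, without either sham glia library or without the libraries of replicate 1, which also gave 1 higher in glia. The medians were -0.01 in neurons and -0.23 in glia, and with the block 3 were called higher and 1 lower in each.

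**Figure D5:**
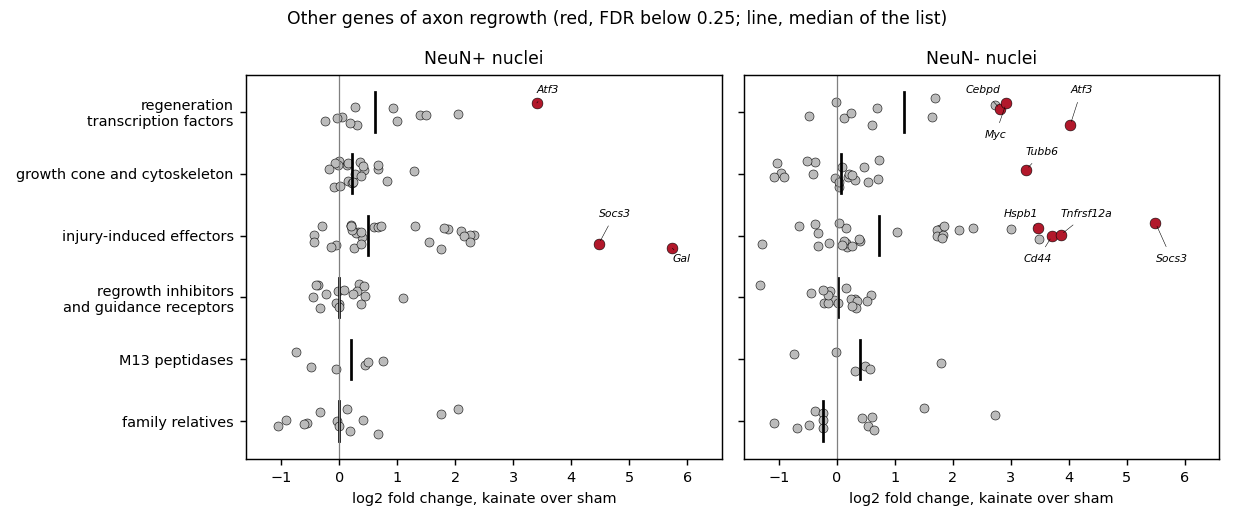
Log2 fold change of kainate over sham (horizontal axes) for the genes of 6 lists in NeuN+ and NeuN- nuclei; each point is a gene, red and named where the FDR was below 0.25, and the black line is the median of the list. Called genes lie to the right in both fractions, and the medians of the growth cone, inhibitor, peptidase and family lists lie between -0.23 and 0.40.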

How the data were processed

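Messenger RNA of sorted nuclei was sequenced in 11 libraries. The authors deposited raw counts per gene. According to the study's methods, reads were trimmed with Trim Galore 0.4.3, aligned to mm10 with Rsubread and counted with featureCounts, uniquely mapped reads only, on GENCODE M16. A strand setting is not given in the sources used here, and there were no molecular identifiers. Positions and exon lengths come from GENCODE M21 of the same build.

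Counts were analysed in R 4.3.3 with edgeR 4.0.16 (TMM, filterByExpr, quasi-likelihood test, Benjamini-Hochberg FDR below 0.25 as in the study), with 1 model of 4 group means. The 105 rows without a symbol were left out. SE is the log2 fold change over the root of F. All 8 genes are named, with the list genes called in neurons or glia (at most 4 per list). Members and lists were chosen with earlier results of these data known.

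Alternatives were DESeq2 1.42.0 (test and size factors), other filters, separate fits per fraction, a replicate block, low RNA input as a covariate, each library left out, and an FDR of 0.05. Deviations of same-numbered libraries correlated at r = 0.643, 0.161 and 0.491 between kainate and sham neurons and at 0.760 and 0.787 in glia. Between the fractions of a pool r was 0.240 to 0.668. Neither the sample titles nor the study's methods pair kainate with sham pools, so that pairing by number was read from these same libraries. With 2 sham glia libraries the deviations in that group mirror each other, so their correlations are not independent checks. The block is by number for kainate effects and by pool for NeuN+ against NeuN-, and it leaves few residual degrees of freedom. The script was tested on simulated data with less spread than these data and no replicate effect. That test does not give the error rates of the fits here. Intervals were not computed for counts, and SDs cover the spread between libraries of pooled mice.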

Additional observations from a re-analysis of the deposited data

Results flagged for a closer look

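The genes were chosen with their kainate response in view, so the values here describe that response and do not test it. Without the replicate block no difference between the neuron and glia effects was called for the 8 genes, where 1 of the 40714 genes was called. With the block 3 of the 8 were called higher in neurons, where 1.23% of all genes were. The difference, neurons minus glia on the log2 scale, was 2.10 for Ecel1, 1.24 for Sox11 and 1.26 for Stmn4, with edgeR FDRs of 0.000169, 0.0534 and 0.0102. Without the block the same differences were 2.13, 1.19 and 1.36 with SEs of 0.45, 0.63 and 0.96, all with an FDR of 1.00. For Ecel1 all 3 same-numbered pairs of neurons were higher after kainate and both pairs of glia were lower, the nearer of the 2 at a ratio of 0.983. Without the 4 libraries of replicate 1 the Ecel1 difference was 1.77 with an FDR of 0.450. Without single libraries the differences in the fit without the block ranged from 1.75 to 2.42 for Ecel1, from 0.48 to 1.67 for Sox11 and from -0.10 to 2.41 for Stmn4. The lowest value of each was that without sham glia replicate 1. Without both low-input libraries the Stmn4 difference was -0.33.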

How the results depend on the processing

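The count of the 8 genes called in neurons was 1, and became 2 with DESeq2, 3 in separate fits per fraction, 5 with the replicate block, 4 without the 4 libraries of replicate 1 (chosen after seeing the data), 0 at an FDR below 0.05, and 0 to 2 without single libraries. The calls over all genes rose as well, from 67 to 360 with DESeq2, 390 of 30259 in separate fits, 2072 with the block and 1026 of 45056 without the libraries of replicate 1. In glia it was 0, and became 1 with the replicate block and 1 without the libraries of replicate 1, which left 1 sham glia library that was assumed to vary like the other groups, while calls over all genes went from 41 to 2357 and to 488. For the difference of the effects it was 0, and became 1 with DESeq2 and 3 with the replicate block, against 1, 31 and 788 calls over all genes. For NeuN+ against NeuN- in sham it was 3, and became 6 with the replicate block, 6 without the libraries of replicate 1, 2 with low input as a covariate (Stmn4 lost, FDR of 0.373), 4 without both low-input libraries (Gap43, Sox11, Basp1 and Stmn2), 1 at an FDR below 0.05, and 2 to 5 without single libraries. Over all genes the calls went from 6816 to 13859 with the block and 19280 of 45056 without the libraries of replicate 1. After kainate it was 4, and became 2 with no filter on low counts, 7 with the replicate block, 6 without the libraries of replicate 1, 3 without both low-input libraries, 2 at an FDR below 0.05, and 2 to 5 without single libraries, against 8442 calls over all genes, 7250 of 51592 with no filter, 20072 with the block and 21379 without the libraries of replicate 1. The cause of these shifts was not tested, save that fewer libraries entered where some were left out.

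Signs changed in the tests of NeuN+ against NeuN- for values that were not called: Klf6 in sham to 0.85 without both low-input libraries and to 0.49 without the libraries of replicate 1, and after kainate to 0.15 without those. With single libraries left out, Klf6 ranged from -1.15 to 0.85 in sham and from -0.92 to 0.26 after kainate, Sprr1a in sham from -2.39 to 4.16, and Stmn4 after kainate from -1.43 to 0.039. Of the kainate values, 3 of 176 in neurons, 15 of 176 in glia and 27 of 168 differences changed sign under an alternative, 0 of them called. The Ecel1 value in neurons kept its sign in all 21 refits, between 1.84 and 1.96, and was called in 18.

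The replicate block changed no other call on the 8 genes than those given. With 2 sham glia libraries, one from low input, glia values are the least certain, and at 0 to 52 counts per library Sprr1a is limited by depth.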
